A study of Mus musculus with 6 samples.

Results

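The BCL2 family apoptosis regulators examined here are 10 mouse genes, taken by symbol from 23420 symbols in the count tables: the anti-apoptotic Bcl2, Bcl2l1 and Mcl1, the effectors Bax and Bak1, and the BH3-only genes Bcl2l11, Bbc3, Pmaip1, Bmf and Bid. They were measured by RNA sequencing in tooth germs of C57BL/6 mouse embryos at E15.5 (embryonic days), in 3 Smad7-/- libraries and 3 wild-type libraries. Both groups share strain, age and tissue, and neither carries any further allele or treatment in the labels. The labels do not say how the Smad7 allele was disrupted, or whether a library holds 1 embryo or a pool, so each p-value reflects library-to-library spread, which may be technical.

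BCL2 family proteins decide whether the outer membrane of the mitochondrion is breached. BAX and BAK1 form the pores through which cytochrome c escapes to switch on caspases, BCL2, BCL-XL (the product of Bcl2l1) and MCL1 hold them in check, and BH3-only proteins such as BIM (Bcl2l11), PUMA (Bbc3), NOXA (Pmaip1), BMF and BID bind the guardians or the effectors to start the process. In the developing tooth, apoptosis clears the primary enamel knot, the epithelial signalling centre of the cap stage. The product of Smad7 is a feedback inhibitor of receptors for TGF-beta and BMP, and TGF-beta is known to raise Bcl2l11 and Bmf in some epithelial cells, which links these genes to a pathway that Smad7 limits.

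TGF-beta is known to raise Bmf and Bcl2l11 in some cells. The DNA just upstream of 1 annotated start of each is therefore shown, as RefSeq gives it for GRCm38.p6 (the mm10 genome). Both stretches lie inside the annotated span of their gene, before an internal start. Each run is the 250 bases before 1 of the annotated starts, read 5′ to 3′ on the gene's strand: chr2:118544588-118544837, minus strand, for Bmf and chr2:128127325-128127574, plus strand, for Bcl2l11. Capitals mark CAGAC or its reverse complement GTCTG, the core that SMAD3 and SMAD4 bind, and GGCGCC, a GC-rich motif that SMADs also bind.
Bmf: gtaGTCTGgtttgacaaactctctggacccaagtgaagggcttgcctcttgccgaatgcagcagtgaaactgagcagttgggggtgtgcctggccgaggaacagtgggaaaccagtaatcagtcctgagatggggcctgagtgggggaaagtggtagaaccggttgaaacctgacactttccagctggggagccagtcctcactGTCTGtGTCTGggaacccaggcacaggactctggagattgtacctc
Bcl2l11: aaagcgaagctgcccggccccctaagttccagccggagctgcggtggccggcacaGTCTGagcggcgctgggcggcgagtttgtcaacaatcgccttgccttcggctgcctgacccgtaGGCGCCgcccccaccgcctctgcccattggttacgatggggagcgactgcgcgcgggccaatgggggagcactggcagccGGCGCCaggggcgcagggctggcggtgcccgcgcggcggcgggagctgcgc
The Bmf window held 3 matches to CAGAC, and the Bcl2l11 window held 1 match to CAGAC and 2 to GGCGCC. The other windows of Bmf and Bcl2l11, which include those before the outermost annotated starts, held neither motif. The windows shown were chosen for their matches: 16 such windows were examined for 9 of the 10 genes, and CAGAC occurred in 6 and GGCGCC in 4. No window of Pmaip1 was examined, so these counts do not cover that gene. Among all 32851 RefSeq windows of the same length, 42.2% held CAGAC and 9.59% held GGCGCC. A match describes the letters and not a bound site.

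Depth ran from 37591888 to 56575476 counts for the Smad7-/- libraries and from 47800685 to 52137318 for the wild-type libraries. Smad7 was lower in each Smad7-/- library, at 1.43 ± 0.71 CPM (counts scaled to the TMM-adjusted library total) against 19.5 ± 1.77 CPM in wild type (SD, n = 3 each; edgeR log2 fold change -3.80, SE 0.33, adjusted p = 0.00753, and 0.0881 without Smad7-/- library 2). The libraries also stood apart in a way that crossed genotype. Smad7-/- libraries 1 and 2 lay with wild-type library 1 on the negative side of the leading principal component (33.5% of variance), and Smad7-/- library 3 lay with wild-type libraries 2 and 3 on the positive side. Smad7-/- library 3 and wild-type library 1 carried the female transcript Xist and the other 4 the Y-linked Ddx3y. Dental epithelium and mesenchyme markers were present throughout, with sums over 9 epithelial genes of 8990 to 11095 CPM in Smad7-/- and 10603 to 11796 CPM in wild-type tooth germs, and over 10 mesenchymal genes of 1198 to 1291 CPM in Smad7-/- and 867 to 1128 CPM in wild-type tooth germs. By point estimates in Smad7-/-, 8 of the 9 epithelial genes were lower and 1 higher (median log2 fold change -0.12), and all 10 mesenchymal genes were higher (median 0.45). Of 7 tested enamel knot genes, 6 were lower and 1 higher (median -0.10). Ranges lay wholly below wild type for 2 of the 7, against 598 of all 15261 tested genes. None of these markers passed after adjustment, and their part in the levels of the members was not tested. In RNA of whole tooth germs, fewer cells of a type and less RNA per cell cannot be told apart.

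All 10 family members were transcribed in every library and passed the filter on low counts, and none passed the test between genotypes. edgeR called 0 of 10 members at an adjusted p under 0.05, against 0.0262% of the 15261 genes tested, and DESeq2 0 of 10, against 0.351% of the genes it adjusted. At an unadjusted p under 0.05 edgeR, DESeq2 and limma-voom each gave 0 of 10, where edgeR gave 5.15% of all genes. The members' log2 fold changes ran from -0.30 to 0.17, with 3 positive and 7 negative and a median of -0.03, beside a median of -0.00295 over all tested genes. The 95% interval of the fold change lay within 1.5-fold in either direction for 8 members, all but Bbc3 and Pmaip1. A change of 1.5-fold or more thus fell outside the intervals of those 8 genes.

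**Figure D1:**
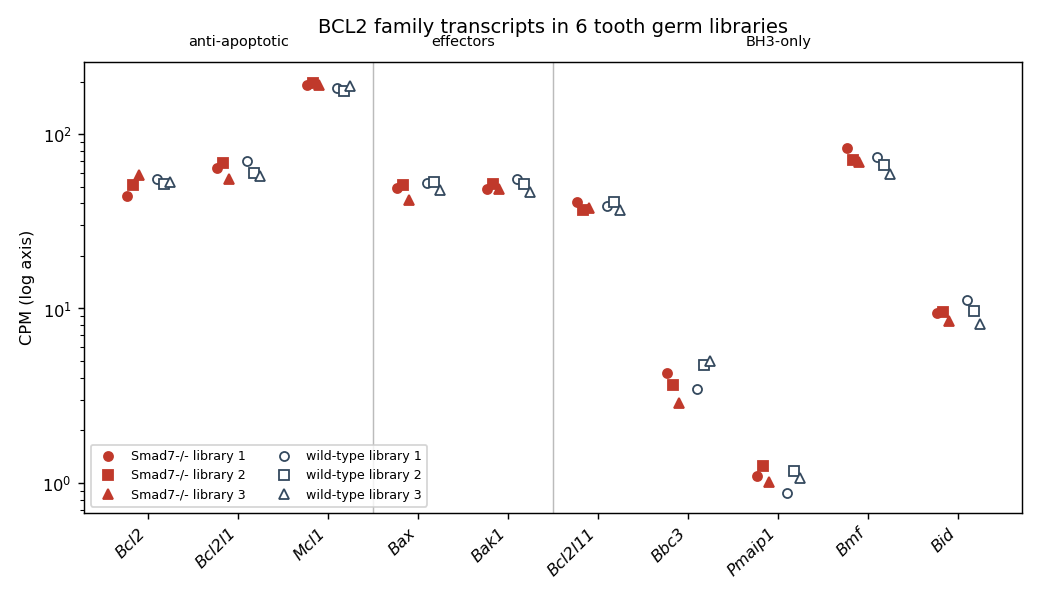
CPM (log axis) of the 10 members in each library, with Smad7-/- libraries as filled red symbols left of wild-type libraries as open symbols, 1 point per library. The genotypes overlap for 9 members, and for Mcl1 the Smad7-/- libraries, at 191 to 198 CPM, sit just above wild type.

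Levels of different genes can be compared only per length, here as CPM per kb of exon. Bax and Mcl1 stood highest, at means over the 6 libraries of 56.8 and 55.1 CPM per kb, and their ranges overlapped (48.5 to 60.9 and 51.6 to 57.8). Bak1 followed at 21.2, then Bcl2l1 at 16.1 and Bmf at 14.6, whose ranges of 14.3 to 18.1 and 12.2 to 17.3 overlapped each other but not that of Bak1. Bcl2 at 5.71, Bcl2l11 at 5.60 and Bid at 4.30 formed a lower tier, in which the range of Bcl2 overlapped both others and those of Bcl2l11 and Bid did not meet. Bbc3 at 2.20 and Pmaip1 at 0.395 CPM per kb were lowest, and their ranges met neither each other nor that of any other member. The rank of Bax depends on the gene model: with all annotated transcripts counted as exon its level was 31.3 and Mcl1 stood first, while the order of the other 8 stayed as given. As classes, the 2 effectors made up 42.8% of the family's summed level per length, the 3 anti-apoptotic genes 42.3% and the 5 BH3-only genes 14.9%. With all annotated transcripts counted, the effectors made up 34.9% and the anti-apoptotic genes 49.7%, so the order of the effector and anti-apoptotic classes depends on the gene model too.

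**Figure D2:**
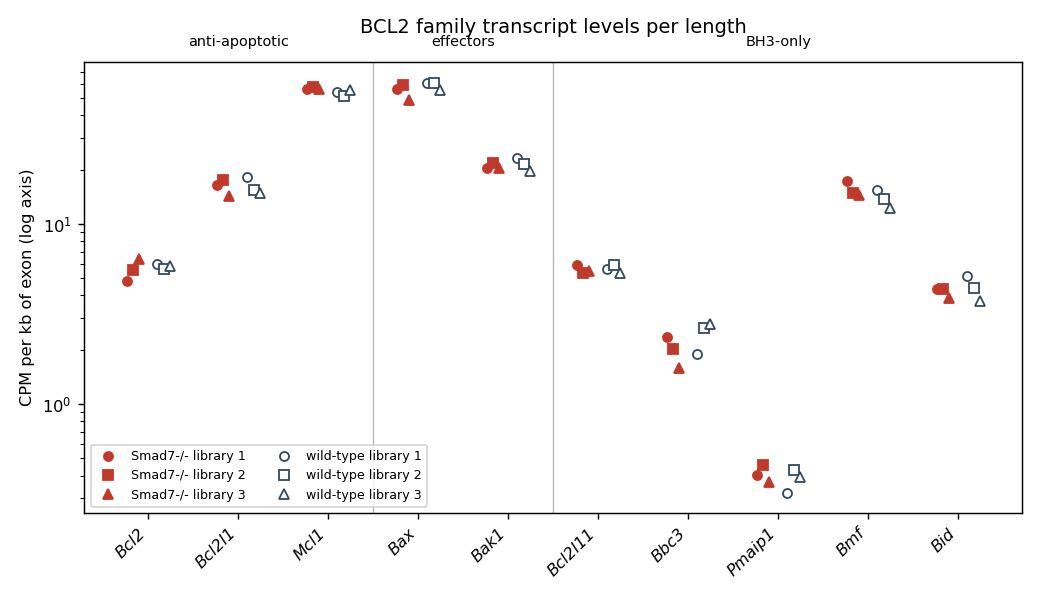
Level of each member per length (CPM per kb of exon, log axis), 1 point per library, Smad7-/- left of wild type. Bax and Mcl1 lead in both genotypes, and Pmaip1, at 0.322 to 0.456, is lowest.

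Among the anti-apoptotic genes, Bcl2 (chromosome 1, 106538178 to 106714274, minus strand, mm10 in GENCODE M21), which encodes the founding guardian of the family, had 44.0, 50.9 and 58.6 CPM in Smad7-/- libraries 1 to 3, against 55.1, 51.6 and 53.2 CPM in wild-type libraries 1 to 3. Smad7-/- libraries 1 and 3 lay below and above every wild-type library, so the spread was wider in Smad7-/- (coefficient of variation 14.2%) than in wild type (3.27%). The log2 fold change was -0.06 ± 0.11 (SE; edgeR adjusted p = 0.999). The antisense gene D630008O14Rik shares 6.09% of the exon bases of Bcl2, and the library kit does not record strand.

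Bcl2l1 (chromosome 2, 152780668 to 152831728, minus strand) gives rise to BCL-XL, which keeps many differentiating cells alive, late red cell precursors among them. It had 63.8, 68.5 and 55.6 CPM in Smad7-/- libraries and 70.4, 60.0 and 57.4 CPM in wild-type libraries. The groups overlapped and their means were both 62.6 CPM, with a log2 fold change of -0.000289 ± 0.11 (SE). Red cell markers were lower in the Smad7-/- libraries, although none passed after adjustment. Of 14 listed genes 4 passed the filter, and all 4 ranges lay below wild type, against 598 of all 15261 tested genes. Summed levels were 17.1 to 29.3 CPM in Smad7-/- and 37.1 to 51.7 CPM in wild type. Of the 11 listed genes present in the data, 5, all of them globin genes, were at 0 in every library. The part of red cells in the level of Bcl2l1 was not tested.

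Mcl1 (chromosome 3, 95658788 to 95663176, plus strand), a short-lived guardian that binds BIM, NOXA and BAK1, varied little, with a coefficient of variation of 1.78% in Smad7-/- and 3.42% in wild type. It had 192, 198 and 191 CPM in Smad7-/- libraries and 184, 176 and 189 CPM in wild-type libraries. The ranges did not meet, for 1 of 10 members, where 8.89% of all tested genes had ranges that did not overlap and 4.97% had them higher in Smad7-/-. The difference was small, at 194 ± 3.45 CPM in Smad7-/- and 183 ± 6.26 CPM in wild type (SD, n = 3 each; log2 0.08 ± 0.08 SE, edgeR adjusted p = 0.999).

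Of the effectors, Bax (chromosome 7, 45461697 to 45466898, minus strand) had 48.9, 51.3 and 42.0 CPM in Smad7-/- libraries, against 52.7, 52.8 and 47.9 CPM in wild-type libraries. Smad7-/- library 3 was the lowest of the 6 and the groups overlapped, with a log2 fold change of -0.11 ± 0.10 (SE). A read-through gene model, Gm45808, shares 22.1% of the exon bases of Bax, and whether the authors' counting used it is not given in the sources used here.

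Bak1 (chromosome 17, 27019810 to 27029009, minus strand), the effector that sits in the mitochondrial membrane even before a death signal, had 48.6, 51.9 and 48.7 CPM in Smad7-/- libraries and 55.5, 51.6 and 46.7 CPM in wild-type libraries. The Smad7-/- libraries lay inside the wild-type range, and the log2 fold change was -0.04 ± 0.09 (SE). Ggnbp1 on the opposite strand shares up to 7.42% of the exon bases of Bak1, and the library kit does not record strand.

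Of the BH3-only genes, Bmf (chromosome 2, 118528757 to 118549687, minus strand), whose product is tethered to the cytoskeleton until cells lose attachment, had 83.7, 71.4 and 69.6 CPM in Smad7-/- libraries, against 74.0, 66.6 and 59.0 CPM in wild-type libraries. Its mean was 74.9 ± 7.65 CPM in Smad7-/- and 66.5 ± 7.50 CPM in wild type (SD, n = 3 each), a log2 fold change of 0.17 ± 0.11 (SE) with a 95% interval of -0.08 to 0.42. This was the smallest p of the family, unadjusted 0.159 and adjusted 0.999 by edgeR, and the groups overlapped.

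Bcl2l11 (chromosome 2, 128126038 to 128162547, plus strand), whose product BIM can engage every guardian, hardly differed. It had 40.7, 36.7 and 37.8 CPM in Smad7-/- libraries and 38.9, 40.8 and 36.7 CPM in wild-type libraries, and the coefficient of variation was 5.28% in Smad7-/- and 5.22% in wild type. The groups covered nearly the same range, and the log2 fold change was -0.02 ± 0.09 (SE), with a 95% interval of -0.22 to 0.19.

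Bbc3 (chromosome 7, 16308393 to 16318205, plus strand), a target of p53 whose product PUMA is a potent inducer of apoptosis, had the lowest point estimate of the family on sparse counts. Counts were 159, 158 and 166 in Smad7-/- libraries and 176, 235 and 239 in wild-type libraries, or 4.24, 3.64 and 2.89 CPM against 3.44, 4.76 and 5.02 CPM. Wild-type library 1 lay inside the Smad7-/- range, and the log2 fold change of -0.30 ± 0.23 (SE) had a 95% interval of -0.81 to 0.21 (edgeR adjusted p = 0.999). The sign of the difference turned with the side of the first principal component for 3 members, on comparisons that each rest on 1 library in an arm. On each side that library was also the only 1 that carried Xist, so genotype and sex cannot be told apart in these comparisons. Smad7-/- libraries 1 and 2 differed from wild-type library 1, on the log2 scale, by 0.19 for Bbc3, 0.41 for Pmaip1 and -0.22 for Bcl2. Smad7-/- library 3 differed from wild-type libraries 2 and 3 by -0.76 for Bbc3, -0.15 for Pmaip1 and 0.16 for Bcl2.

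Pmaip1 (chromosome 18, 66458533 to 66465565, plus strand), whose product NOXA neutralises MCL1, was barely detected, with 41, 54 and 58 counts in Smad7-/- libraries and 45, 58 and 51 counts in wild-type libraries. This was 1.09, 1.24 and 1.01 CPM in Smad7-/- and 0.880, 1.18 and 1.07 CPM in wild type, with overlapping groups. The 95% interval of its log2 fold change, -0.55 to 0.75, was the widest of the family.

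Bid (chromosome 6, 120891930 to 120916853, minus strand), which carries the signal of death receptors to mitochondria once caspase-8 has cut its product, had 9.47, 9.50 and 8.44 CPM in Smad7-/- libraries and 11.2, 9.65 and 8.19 CPM in wild-type libraries. The Smad7-/- libraries lay inside the wild-type range, and the log2 fold change was -0.08 ± 0.16 (SE).

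**Figure D3:**
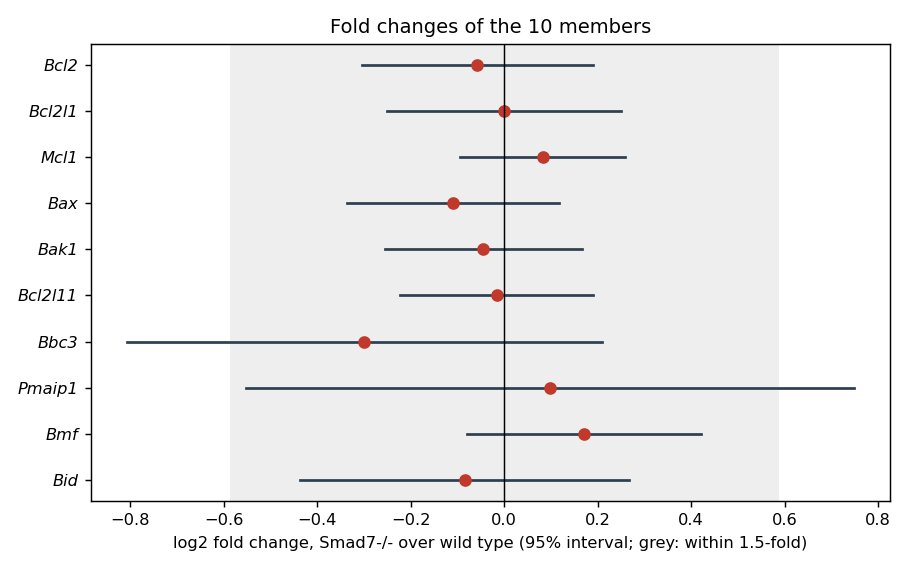
Log2 fold change of each member, Smad7-/- over wild type (point), with its 95% interval (line), from edgeR on 3 libraries per group; the grey band marks 1.5-fold in either direction. Every interval includes 0, and those of Bbc3 and Pmaip1 alone leave the band.

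The difference between genotypes in the balance of opposed members can be read from count ratios within each library, where library size cancels. Gene length does not cancel, so the size of a count ratio, here and for the class sums below, is not a relative level. Per kb of exon, Bax averaged 56.8 CPM and Bcl2 5.71 CPM over the 6 libraries, as above. The Bax to Bcl2 count ratio was 1.11, 1.01 and 0.717 in Smad7-/- libraries and 0.957, 1.02 and 0.900 in wild-type libraries. Smad7-/- libraries 1 and 3 were the highest and the lowest of the 6. The mean log2 ratio was -0.11 ± 0.33 in Smad7-/- and -0.06 ± 0.09 in wild type (SD, n = 3 each), a difference of -0.05 with a two-sided exact permutation p = 0.9, where 0.1 is the smallest p that 3 against 3 libraries allow. The difference was 0.14 without Smad7-/- library 3 and 0.00145 without wild-type library 2, so its sign rests on single libraries.

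The summed BH3-only counts were 0.464, 0.387 and 0.392 of the summed anti-apoptotic counts in Smad7-/- libraries and 0.415, 0.427 and 0.368 in wild-type libraries. Smad7-/- library 1, which also had the highest Bmf, gave the highest ratio. The mean log2 ratio was -1.28 ± 0.15 in Smad7-/- and -1.31 ± 0.12 in wild type (SD, n = 3 each), and the difference of 0.04 had a two-sided exact permutation p = 0.8. Leaving out Smad7-/- library 1 made it -0.05 and leaving out wild-type library 3 made it -0.03, and it was -0.03 from mean log2 CPM and -0.00234 per kb of exon. As classes, the BH3-only genes summed to 127 ± 10.5 CPM in Smad7-/- and 120 ± 9.47 CPM in wild type, the effectors to 97.1 ± 6.22 CPM in Smad7-/- and 102 ± 7.05 CPM in wild type, and the anti-apoptotic genes to 307 ± 8.72 CPM in Smad7-/- and 299 ± 10.6 CPM in wild type (SD, n = 3 each).

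**Figure D4:**
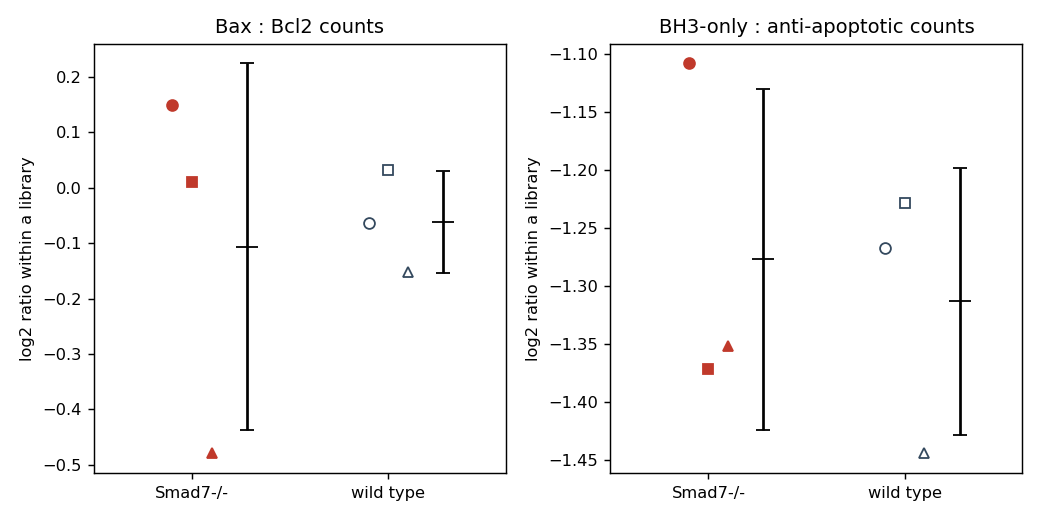
Log2 ratios within each library of Bax to Bcl2 counts (left) and of summed BH3-only to summed anti-apoptotic counts (right), for Smad7-/- (red) and wild type (open), 1 point per library, with mean ± SD beside each group. The groups overlap in both panels, and Smad7-/- spreads from -0.48 to 0.15 for Bax to Bcl2.

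The members did not vary as a block among the libraries. Bid, Bak1 and Bcl2l1 moved most alike, with Pearson correlations of log2 CPM over the 6 libraries of 0.925 for Bid with Bak1 and 0.851 for Bid with Bcl2l1, whereas Bcl2 ran against Bmf at -0.557 and Mcl1 against Bcl2l11 at -0.601. Among the other cell death genes listed with a mean of at least 5 CPM, 75 in all, the closest to Bcl2l1 was the mitochondrial family gene Bcl2l13 (r = 0.973, rho = 1) and to Bax the stress gene Sesn2 (r = 0.970, rho = 0.943). Mcl1 was closest to the phosphatase gene Inpp5d (r = 0.973, rho = 0.943), Bid to the dynein light chain gene Dynll2 (r = 0.972, rho = 0.829), Bmf to the mitophagy receptor gene Bnip3l (r = 0.911, rho = 0.943) and Bak1 to E2f1 (r = 0.909, rho = 0.829). Pmaip1 with Tradd (r = 0.882), Bbc3 with Fbxw7 (r = 0.837) and Bcl2l11 with Casp2 (r = 0.739) were looser. These are the highest of 75 values over the same 6 libraries, which share their division along the first principal component, and they describe these libraries only.

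Of 17 other BCL2 family genes listed, 14 were tested, 7 with positive and 7 with negative log2 fold changes from -0.76 to 1.08 and a median of 0.01, and edgeR called 0. The guardian gene Bcl2l2 (BCL-W) stood at 55.5 ± 3.46 CPM in Smad7-/- and 53.2 ± 3.37 CPM in wild type (log2 0.06 ± 0.09 SE). The BH3-only gene Bad was at 0.02 ± 0.11, the effector-like Bok at 0.03 ± 0.18, and the autophagy gene Becn1, which carries a BH3 motif, at -0.01 ± 0.08. The mitophagy receptor genes Bnip3 and Bnip3l were at -0.00477 ± 0.11 and 0.11 ± 0.08, with Bcl2l13 at -0.04 ± 0.10 and Bcl2l12 at -0.09 ± 0.17. Bcl2l14, Bcl2l15 and the BH3-only gene Hrk, all under 1 CPM, were at -0.38 ± 0.47, 0.87 ± 0.50 and -0.23 ± 0.58.

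Bik, a BH3-only gene of the endoplasmic reticulum, had 1.87, 1.08 and 2.10 CPM in Smad7-/- libraries and 2.68, 3.10 and 2.79 CPM in wild-type libraries. Its ranges did not meet, and the log2 fold change was -0.76 ± 0.28 (SE; edgeR unadjusted p = 0.0223, adjusted p = 0.830). Bcl2a1b, a guardian gene of blood cells, had 0.587, 0.876 and 1.27 CPM in Smad7-/- libraries and 0.430, 0.365 and 0.504 CPM in wild-type libraries, likewise without overlap (log2 1.08 ± 0.39 SE; edgeR unadjusted p = 0.0199, adjusted p = 0.830), while its copy Bcl2a1a was at 0.72 ± 0.57.

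The Bcl2a1 genes are near-identical copies, and the counts do not show how reads matching more than 1 copy were treated. Their counts were therefore also summed, giving 33, 56 and 109 in Smad7-/- libraries and 34, 36 and 39 in wild-type libraries. As CPM the sums were 0.880, 1.29 and 1.90 against 0.665, 0.730 and 0.819. Any reads left out of the counting would be missing from these sums. Smad7-/- library 3 was highest. The 10 macrophage markers were all higher in Smad7-/- by their point estimates, none passing after adjustment, with sums of 207, 223 and 206 CPM in Smad7-/- libraries and 123, 120 and 168 CPM in wild-type libraries. Their part in the Bcl2a1 levels was not tested.

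Together with these other family genes, 95 listed cell death genes besides the 10 members were tested, and edgeR called 0 of them, as did limma-voom, while DESeq2 called 1. At an unadjusted p under 0.05 edgeR gave 6 genes, or 6.32% of the 95 against 5.15% of all genes, and ranges did not overlap for 9.47% against 8.89%. The gene called by DESeq2 was Cdkn1a, the CDK inhibitor p21 and a p53 target that stops the cell cycle rather than killing cells. It had 35.6, 29.7 and 21.4 CPM in Smad7-/- libraries and 17.5, 16.5 and 16.6 CPM in wild-type libraries, without overlap (edgeR log2 0.78 ± 0.17 SE, adjusted p = 0.537; DESeq2 0.78 ± 0.18 SE, adjusted p = 0.00835).

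Over the whole p53 list of 20 genes, Cdkn1a included, 9 had positive and 11 negative log2 fold changes, with a median of -0.00661. Perp, a p53 target of desmosomes, was at -0.09 ± 0.15 (SE), the endoplasmic reticulum gene Ei24 at 0.03 ± 0.12 and the growth arrest gene Gadd45a at -0.29 ± 0.16. The p53 targets inside the family, Bax, Bbc3 and Pmaip1, are given above at -0.11, -0.30 and 0.10.

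Downstream of the mitochondrion, genes for cytochrome c release and the apoptosome had a median log2 fold change of -0.03 over 11 genes, 0 of them with an unadjusted p under 0.05. Apaf1, the scaffold of the apoptosome, was at -0.23 ± 0.26 (SE), the oxidoreductase gene Aifm1 at -0.15 ± 0.13, the channel gene Vdac1 at -0.03 ± 0.09 and Tmbim6, a membrane-bound BAX inhibitor, at -0.01 ± 0.11. The caspase list, 11 genes counting Cflar, which encodes a decoy of caspase-8, had a median of -0.02. Casp2 was at -0.07 ± 0.09 and Cflar at -0.07 ± 0.09. None of these genes passed, either unadjusted or adjusted.

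Inhibitor of apoptosis genes had a median of 0.01 over 7 tested genes, with Xiap, which blocks caspases directly, at -0.02 ± 0.09 (SE), Birc6 at -0.14 ± 0.15 and the mitotic survivin gene Birc5 at -0.15 ± 0.11. The 8 markers of dividing cells, beside Birc5, were all negative by their point estimates, with a median of -0.15 and sums of 641 to 1090 CPM in Smad7-/- and 842 to 1006 CPM in wild-type libraries; their part in the level of Birc5 was not tested. Death receptor genes had a median of -0.02 over 10 genes, with Tnfrsf1a, a TNF receptor, at 0.11 ± 0.10, the kinase gene Ripk1 at -0.04 ± 0.12 and the adaptor gene Fadd at -0.21 ± 0.13. Genes that set the level or place of BH3-only proteins and MCL1 had a median of -0.03 over 16, with the MCL1 ubiquitin ligase gene Huwe1 at -0.03 ± 0.13, Ywhaz, which encodes a 14-3-3 protein that holds phosphorylated BAD, at 0.09 ± 0.10, the stress factor gene Ddit3 at 0.16 ± 0.17 and Foxo4 at 0.13 ± 0.10.

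The 7 tested genes that link TGF-beta to cell death or growth arrest had the highest median of these lists, 0.17, with 6 positive and 1 negative, and none passed after adjustment. Tsc22d1, a leucine zipper gene induced by TGF-beta, had 349, 368 and 360 CPM in Smad7-/- libraries and 312, 293 and 316 CPM in wild-type libraries, without overlap (log2 0.22 ± 0.08 SE; edgeR unadjusted p = 0.0222, adjusted p = 0.830). Inpp5d, a lipid phosphatase of blood cells, was at 0.36 ± 0.17 and the death-associated kinase gene Dapk1 at 0.19 ± 0.11, while Gadd45b, a stress-response gene, was at -0.41 ± 0.15 (edgeR unadjusted p = 0.0249, adjusted p = 0.857). Inpp5d is also expressed by macrophages, whose markers were at 206 to 223 CPM in Smad7-/- and 120 to 168 CPM in wild type as above; their part in it was not tested. Other markers were also higher in Smad7-/- by their point estimates. For dental mesenchyme this held for 10 of 10 (median 0.45), with 8 ranges wholly above wild type, against 4.97% of all tested genes. For endothelium it held for 7 of 7 (median 0.22), with sums of 328 to 373 CPM in Smad7-/- and 235 to 358 CPM in wild type. The part of these tissues in the list was not tested.

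**Figure D5:**
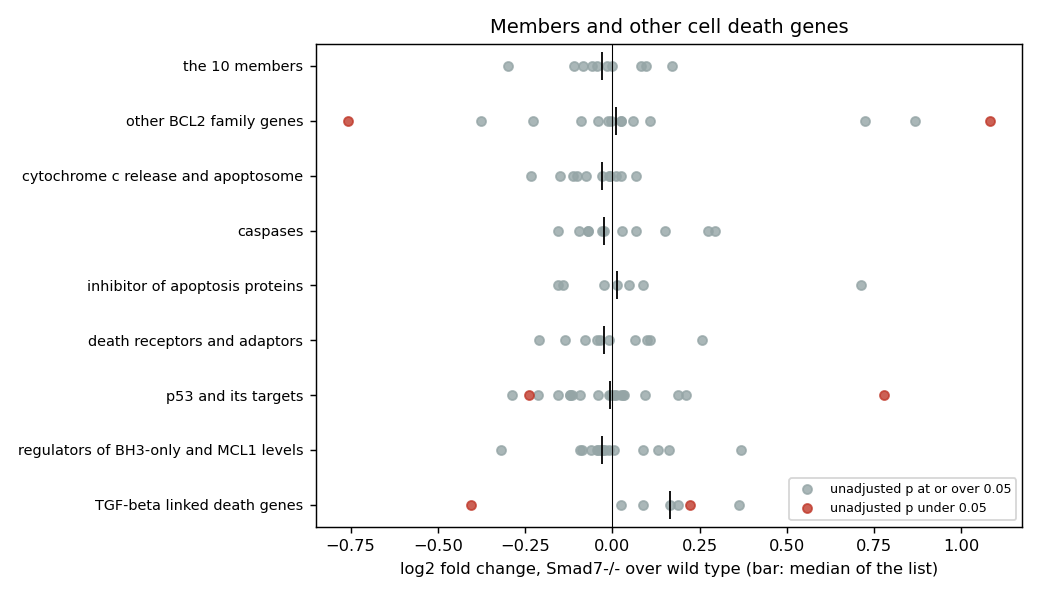
Log2 fold changes, Smad7-/- over wild type, of the 10 members and of the tested genes of 8 other cell death lists, 1 point per gene, red where the unadjusted edgeR p was under 0.05; the bar is the median of the list. The 10 members lie between -0.30 and 0.17, and no gene shown passed after adjustment in edgeR.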

How the data were processed

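Raw counts per gene symbol, 1 table per library, were deposited by the authors with no normalization; per the submitters' processing notes and the file headers, reads were aligned with HISAT2 to mm10 and counted with featureCounts, without versions, and DESeq2 is also named. Per the labels' protocols, a TruSeq RNA kit was used, which does not record strand. The 27 symbols turned into dates by a spreadsheet program, at most 0.223% of a library's counts, were left out. The members and lists were chosen with earlier results of these data known.

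After filterByExpr (at least 10 counts, 15 in total) 15261 genes remained. They were scaled by TMM (factors 0.983 to 1.02) and tested in edgeR 4.0.16 (R 4.3.3) with a robust quasi-likelihood fit and no covariates, with Benjamini-Hochberg adjustment across the 15261 and a threshold of 0.05. SE is the absolute log2 fold change over the root of F, and intervals (95%) use the fit's degrees of freedom. Libraries were grouped by the labelled genotype. Exon lengths and positions are from GENCODE M21 (basic set). Alternatives were DESeq2 1.42.0, voom in limma 3.58.1, other scaling and filters, a non-robust fit, replicate number, library set (sign of the first principal component) or sex (Xist against Ddx3y) as a term, and leaving out each library. The script was tested on simulated data.

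Named genes were all members, Smad7, every tested gene of the other BCL2 family list and, per other list, genes past the threshold, the 2 most abundant and the 2 with the largest change at a mean of at least 5 CPM. Some genes that this rule selects are not reported here. Figures were drawn with matplotlib 3.10.9.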

Additional observations from a re-analysis of the deposited data

How the results depend on the processing

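In all 16 alternatives 0 members passed, including 8 members tested at a mean of at least 5 CPM, where Bbc3 and Pmaip1 were filtered out. The count of genes past the threshold, 4, became 59 by DESeq2 run without the filter on low counts (44 higher, 15 lower), where tool and filter differ together, and 2 among genes averaging 5 CPM or more (1 higher, 1 lower), and ran from 1 to 7 when 1 library was left out (2, 1 and 7 without Smad7-/- library 1, 2 and 3). With the replicate number as a block it stayed at 4, with 0 members; the residuals of same-numbered libraries correlated at 0.169, -0.0339 and 0.0929, so the numbers were not taken to pair the libraries, and the ratios gave the same differences (exact sign-flip permutation p = 0.75 for both).

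Mcl1, Bax, Bbc3 and Bmf kept their sign in every alternative that tested them (0.06 to 0.11, -0.17 to -0.03, -0.46 to -0.16 and 0.08 to 0.25). For the other 6 members the sign turned in at least 1 alternative. Bcl2l1 was at 0.00542 with library totals, 0.00137 at a mean of at least 5 CPM, 0.000401 with the replicate block, 0.000611 with sex, and between -0.0686 and 0.0868 without 1 library (0.0868 without wild-type library 1 and 0.0785 without Smad7-/- library 3). Without wild-type library 1, Bak1, Pmaip1 and Bid were at 0.0122, -0.0162 and 0.0288; over all libraries left out they ran from -0.11 to 0.0122, -0.0162 to 0.19 and -0.19 to 0.0288. Bcl2l11 was at 0.0210 without wild-type library 2 and 0.0152 without Smad7-/- library 2, and Bcl2 at 0.0396 without Smad7-/- library 1, in ranges from -0.0590 to 0.0210 and -0.17 to 0.0396. None passed in any of these, and the cause was not tested.

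The Bax to Bcl2 difference ran from -0.17 to 0.14 without 1 library (0.00145 without wild-type library 2), and against Bcl2l1 and Mcl1 it was -0.11 and -0.20. The BH3-only to anti-apoptotic difference ran from -0.0482 to 0.0834 without 1 library (-0.0292 without wild-type library 3, -0.0482 without Smad7-/- library 1), and was -0.0268 from mean log2 CPM and -0.00234 per kb of exon. Pmaip1 and Bbc3 had the fewest counts of the members, 41 to 239 per library. For Smad7 the call ended in 1 of 16 alternatives (adjusted p up to 0.0881).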
